A study of Mus musculus with 12 samples.

Results

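Col7a1 encodes the chain of type VII collagen, the collagen of the anchoring fibrils that tie the basement membrane under the epidermis to the dermis. Its span lies on the plus strand of chromosome 9, from 108953586 to 108984875 (GRCm38, 31290 nt). All ESRP1 sites of 3 deposited lists on that strand and inside that span were taken, which gave 170 of 167480 sites. Its protein has a large noncollagenous part at the amino end, then a long triple helix of glycine repeats that is encoded by many short exons, and a smaller noncollagenous part at the carboxyl end. Keratinocytes and dermal fibroblasts are both known to make it, and loss of it causes dystrophic epidermolysis bullosa, in which skin blisters below the basement membrane. ESRP1 is an epithelial RNA-binding protein that regulates splicing.

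ESRP1 contacts with RNA were mapped by eCLIP, in which ultraviolet light joins protein to RNA, the protein is pulled down, and the stops of reverse transcription mark the contact. Epidermis came from the back skin of mouse pups on postnatal day 1, and every animal carried the genotype Esrp1FLAG/FLAG, a FLAG tag on both copies of the endogenous gene, so immunoprecipitates and inputs share the tag. The labels name 6 FLAG immunoprecipitated libraries (antibody FLAG, Sigma F1804) and 6 input libraries with no antibody, from biological replicates 1 to 6. The values are 3 lists of single-nucleotide sites with a strand and a score, which the authors called with input from 2 replicates at a time. List 1 covers replicates 1 and 2, list 2 covers replicates 3 and 4, and list 3 covers replicates 5 and 6.

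The gene had been picked because it is rich in sites, so its counts are given as a description, without a test. On the minus strand of the span there was no site in any of the lists. The lists carry no read counts, so depth is unknown, and expression was not measured, so contacts per transcript and transcript amount cannot be told apart.

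A single microRNA gene, Mir711, is annotated inside the Col7a1 span, on the same strand, and it serves as a landmark in the stretch where contacts were sparse. The mature microRNA lies at chr9:108969970-108969991 (GRCm38, plus strand), between 16385 and 16406 nt from the start of the span, and its sequence from RefSeq (GRCm38.p6) is shown with the seed, bases 2 to 8, in capitals.
mmu-miR-711: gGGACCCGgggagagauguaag
No site fell on the 82 nt hairpin. The nearest site before it was 219 nt away in list 1, and the nearest after it was 1708 nt away in list 3.

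Each pair of replicates gave Col7a1 nearly the same part of its sites. List 1 held 77 sites in Col7a1, list 2 held 39 and list 3 held 54. Per 10000 sites of the list this was 10.5 in list 1 (95% exact binomial interval 8.26 to 13.1), 9.75 in list 2 (6.93 to 13.3) and 10.03 in list 3 (7.53 to 13.1), or 10.1 ± 0.360 on average (SD, n = 3 lists). The intervals cover counting error only, and they overlapped for every pair of lists. They treat each site as independent, although many sites lie on neighbouring nucleotides, so they are likely too narrow. By sites over the 3 lists together, 1 protein-coding gene had more than Col7a1.

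Neighbouring sites within 10 nt in a list were merged into a region, and a union region was made wherever regions of several lists came within 10 nt. List 1 had 35 regions in Col7a1, list 2 had 32 and list 3 had 30 (32.3 ± 2.52, SD, n = 3 lists). Contacts were more often lone sites than in the lists as a whole in lists 2 and 3. In list 1, 14 of 35 Col7a1 regions (40%) were a lone site, against 39.3% of all its regions. In list 2 the shares were 78.1% in Col7a1 and 62.0% in the whole list, and in list 3 they were 56.7% in Col7a1 and 42.6% in the whole list. The smallest gap between separate union regions was 11 nt, and 12 gaps were of 20 nt or less.

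**Figure D1:**
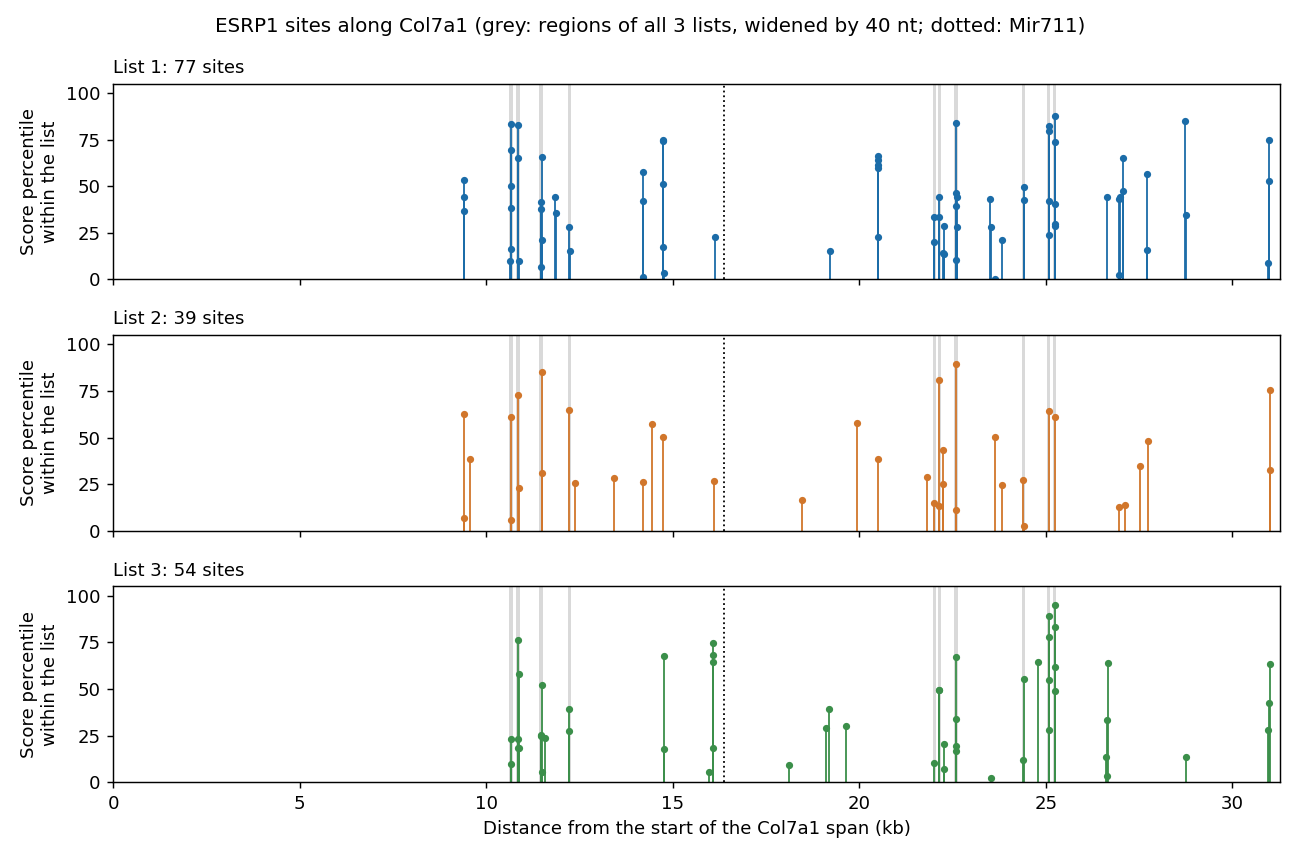
Sites of lists 1, 2 and 3 along Col7a1, with distance from the start of the span in kb on the horizontal axis and the percentile of each site's score within its list on the vertical axis. The first 9398 nt hold no site in any list, and the grey regions found in all 3 lists fall into 2 groups on either side of Mir711 (dotted line).

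The first part of the Col7a1 span was free of sites. The first site lay 9399 nt from the start in list 1, 9411 nt in list 2 and 10664 nt in list 3, so that 30.0% of the span had no contact in any list. The other end was reached by all 3 lists, with the last site at 30980, 31010 and 31011 nt, the final one 279 nt before the end of the span. Beyond the span on the plus strand, the nearest site upstream was 6117 nt before the start in list 3 and the nearest downstream was 36691 nt after the end in list 1.

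A site-free first part of this size was seen in a minority of genes as rich in regions. In the 75 protein-coding genes with an annotated strand and at least 5 regions found in all 3 lists (genes with that many made up 0.471% of all protein-coding genes, whether or not their strand is annotated), the median part of the span before the first site was 2.66%. Of these genes, 9 (12.0%) had a larger part than Col7a1. The comparison takes no account of how exons and introns are spread over each span, which was not analysed here.

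Regions held by all 3 lists fell into 2 groups. Of 60 union regions in Col7a1, 11 held sites of every list, 15 held sites of 2 lists and 34 held sites of a single list. The first 5 of the 11 lay between 10662 and 12227 nt from the start (chromosome 9, 108964247 to 108965812). The other 6 lay between 22003 and 25239 nt (108975588 to 108978824). The gap of 9776 nt between the groups was far wider than the next widest gap between neighbouring regions of the 11, which was 1803 nt. The groups were drawn after the positions were seen and are a description.

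The lists resembled each other in how their sites were spread over these zones. Both groups were drawn around regions holding sites of all 3 lists. Each list therefore has sites in both by construction, and the higher density there is partly built in. The first group, 5.00% of the span, held 20.8% of the sites of list 1, 17.9% of list 2 and 25.9% of list 3. The second group, 10.3% of the span, held 36.4%, 33.3% and 38.9% of the sites of lists 1, 2 and 3. Together this was 23.6 sites per kb in the first group and 19.2 in the second. Between the groups, 9775 nt held 3.79 sites per kb, and the 6051 nt after the second group held 4.46. The median site lay 22138 nt from the start in list 1, 21802 nt in list 2 and 22137.5 nt in list 3 (22026 ± 194 nt, SD, n = 3 lists). Of 32 bins of 1 kb, 21 held a site of any list and 11 held sites of every list.

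The stretches outside the groups held many contacts that did not recur in every list. Between the groups there were 19 union regions, 4 of them in 2 lists and 15 in a single list. After the second group there were 15, with 5 in 2 lists and 10 in a single list. Before the first group there were 3, at 9399 nt and beyond, from lists 1 and 2. The widest stretches without a site after the first one measured 2194, 2007 and 1381 nt.

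For each of the 11 recurring regions the highest score in every list is given, as the authors' score and as its percentile. The percentile is the share of that list's sites with a lower score, with equal scores placed at their middle rank. Region 2 was the strongest of the first group. It covers 108964435 to 108964438, 10850 to 10853 nt from the start, and held 2, 1 and 3 sites in lists 1, 2 and 3. Its highest scores were 42.5, 25.1 and 40.04, at percentiles 82.6, 73.0 and 76.3, and all lists had them on the same nucleotide, 10852 nt from the start. Region 4, at 108965050 to 108965069, is the longest with 20 nt and held 5, 2 and 4 sites. Its highest scores of 20.6, 40.6 and 19.0 lay at percentiles 65.8, 85.0 and 52.1, on nucleotides 11482, 11482 and 11481. In both regions every list was above the middle of its own scores.

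The other regions of the first group were strong in 1 list and weak in another. Region 1, at 108964247 to 108964251, held 5, 2 and 2 sites, with highest scores of 44.2, 18.7 and 6.05 at percentiles 83.3, 61.3 and 23.1. Region 3, at 108964453 to 108964454, starts 15 nt after region 2 and held 1, 1 and 2 sites. Its scores of 1.48, 4.95 and 22.8 lay at percentiles 10.1, 22.9 and 58.2, all on nucleotide 10868, so list 3 alone placed it above its middle. Region 5, at 108965811 to 108965812, held 1, 1 and 2 sites with highest scores of 4.97, 20.3 and 12.1, at percentiles 28.2, 64.7 and 39.3, on nucleotide 12226 in every list.

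In the second group, 3 regions stood above the rest. Region 11, at 108978820 to 108978824, had the highest mean percentile of the 11, 81.2. It held 5, 1 and 4 sites, and the highest scores of 56.7, 18.7 and 102 lay at percentiles 87.6, 61.1 and 94.9, all on nucleotide 25236. The scores of list 1 and list 3 were the highest those lists gave to any Col7a1 site. Region 8, at 108976170 to 108976181, held 4, 2 and 4 sites with highest scores of 45.3, 52.3 and 29.7, at percentiles 83.8, 89.5 and 67.0. List 2 reached its highest Col7a1 score there, on nucleotide 22585 as in list 3, while list 1 had its highest 4 nt further on. Region 10, at 108978659 to 108978666, held 4, 1 and 4 sites with highest scores of 41.5, 20.1 and 68.2, at percentiles 82.2, 64.2 and 89.1.

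Recurrence in every list did not require high scores. Region 7, at 108975722 to 108975727, held 2 sites in each list, with highest scores of 9.51, 34.0 and 17.4 at percentiles 44.4, 81.1 and 49.5. Region 6, at 108975588 to 108975596, held 2, 1 and 1 sites at percentiles 33.3, 14.7 and 10.2 at most, and yet lists 1, 2 and 3 shared the nucleotide 22011. Region 9, at 108977984 to 108977995, held 2, 1 and 1 sites at percentiles 49.8, 2.59 and 11.7 at most. Its highest nucleotides lay up to 11 nt apart, and it was the region that was lost when regions had to overlap by at least 1 nt and when list 1 was left out.

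**Figure D2:**
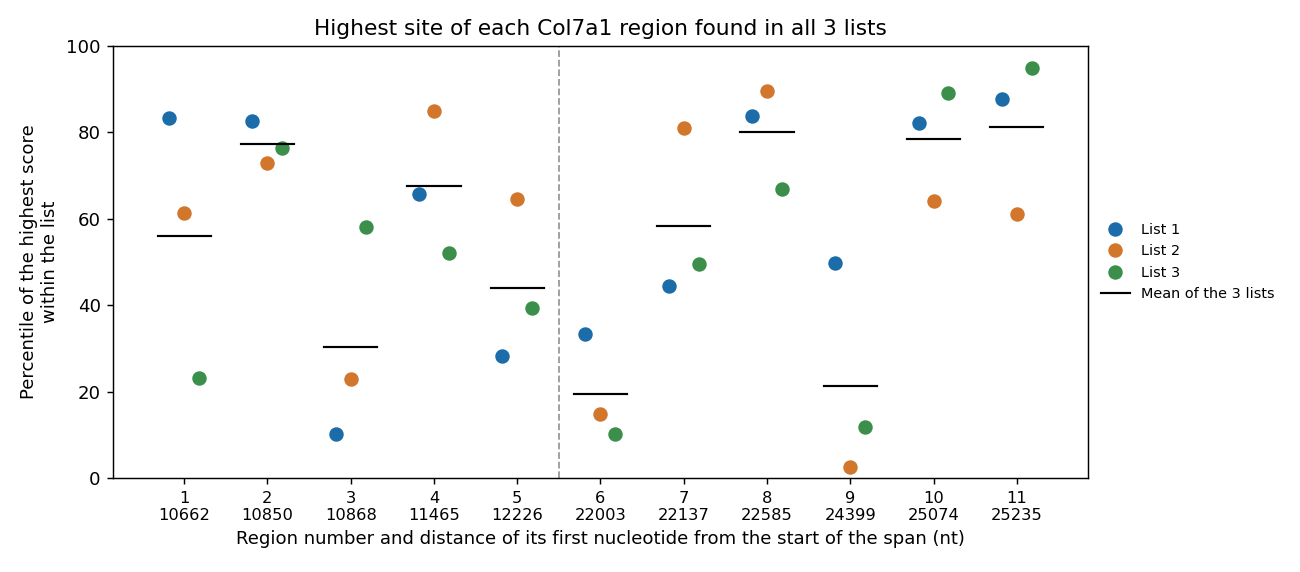
Percentile of the highest score within the list (vertical axis) for each of the 11 Col7a1 regions found in all 3 lists, ordered along the gene and labelled with region number and nt from the start of the span, with the mean of the lists as a bar. Regions 2, 8, 10 and 11 have all lists above percentile 60, whereas regions 6 and 9 have every list below percentile 50.

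Contacts of different replicates often fell within a few nucleotides of each other rather than on the same one. In 4 of the 11 regions (36.4%) all lists had their highest site on the same nucleotide, close to the 34.9% of 5947 recurring regions of other protein-coding genes. In 8 of the 11 regions the highest sites lay within 5 nt. The regions were short, with a median of 6 nt in Col7a1 and 9 nt in other protein-coding genes.

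Over all its sites, Col7a1 shared fewer nucleotides between lists than the lists did as a whole. Sites fell on 131 different nucleotides of Col7a1, and 7 of these held a site of every list: 10666, 10852, 10868, 12226, 22011, 22589 and 25236 nt from the start. That was 9.09% of the Col7a1 sites of list 1, against 19.8% of all sites of list 1. The share was 17.9% in Col7a1 and 36.4% in all of list 2, and 13.0% in Col7a1 and 27.1% in all of list 3. Of all Col7a1 sites, 12.4% shared their nucleotide with both other lists, 25.9% had sites of both other lists within 1 nt and 34.7% within 3 nt.

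**Figure D3:**
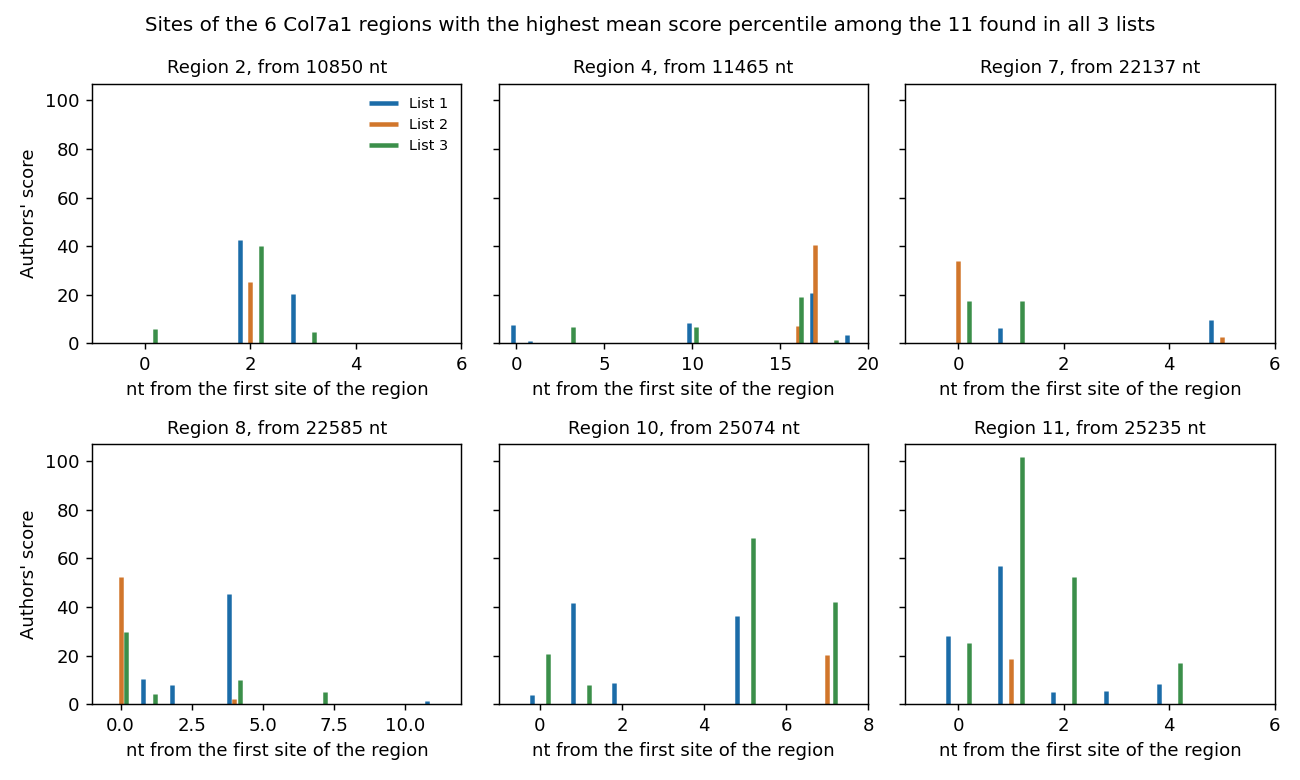
Sites of lists 1, 2 and 3 in the 6 Col7a1 regions with the highest mean score percentile among the 11 found in all 3 lists, with nt from the first site of the region on the horizontal axis (bars of the lists drawn side by side at each nucleotide) and the authors' score on the vertical axis. In regions 2 and 11 the highest bars of all lists stand on 1 nucleotide, and in region 10 they stand on 3 different ones.

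Few contacts outside the 11 regions scored as high. A site at or above percentile 75 in some list was held by 7 of the 11 regions. Of the other union regions, 15 of 2 lists and 34 of a single list, it was held by 2. The highest site of each of the 11 was taken over 3 lists, whereas 28 of the 34 were a lone site. This contrast is therefore partly built in, and the same count in other genes is not given. The 34 regions of a single list had a median highest percentile of 32.6. In the 15 regions of 2 lists, the median of the mean highest percentile was 28.5. The 5 regions described here were picked for the highest percentile. The strongest by a single list lay at 108982328 to 108982329, 28743 nt from the start, where list 1 held 2 sites with a highest score of 48.2, at percentile 84.9, and the other lists held none. Near the 3′ end, lists 2 and 3 shared a region at 108984594 to 108984596, with highest scores of 27.3 and 26.8 at percentiles 75.5 and 63.6. Just before it, lists 1 and 3 shared one at 108984557 to 108984565, with highest scores of 29.4 and 13.5 on the same nucleotide, 30980. So every list had contacts in the last part of the gene, but no union region there held all of them. Before Mir711, list 3 alone held 4 sites at 108969658 to 108969674, with a highest score of 37.9 at percentile 74.6. Lists 1 and 3 shared a region at 108968330 to 108968341, with highest scores of 29.1 and 30.5 at percentiles 74.6 and 67.8.

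Scores in Col7a1 were low for their lists. The median Col7a1 site lay at percentile 42.0 in list 1, 32.5 in list 2 and 29.8 in list 3. The median score was 8.69 in Col7a1 and 11.6 in all of list 1, 7.65 in Col7a1 and 14.7 in all of list 2, and 8.32 in Col7a1 and 17.7 in all of list 3. Of the Col7a1 sites, 7 of 77, 4 of 39 and 5 of 54 lay at percentile 75 or above, which is 9.09%, 10.3% and 9.26%. Of the 11 recurring regions, 4 had a mean percentile above 73.2, the median of recurring regions in other protein-coding genes, and the median of the 11 was 58.4.

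Among protein-coding genes, Col7a1 stood out by number of contacts. Of 21887 protein-coding genes, 3594 (16.4%) had a recurring region, one held by every list, with a median of 1, and 5 genes (0.0228%) had 10 or more. Hrnr had 15 such regions, Ctnnd1 had 13, and Col7a1 and the scaffold gene Ahnak had 11 each. Per kb of span Col7a1 had 0.352 regions, against a median of 0.0406 over the 3594 genes. By this density it ranked 228 of the 3594, and 6 among the 2992 of them with spans of at least 10000 nt. By union regions of any number of lists, 2 genes had more than its 60. Of these 60, 18.3% were found in all 3 lists (exact binomial interval 9.52 to 30.4), which is near the 18.9% of 31425 union regions of other protein-coding genes. That nearness depended on the setting: with sharing within 50 nt the share was 34.1% in Col7a1 and 22.9% in other protein-coding genes, and with the highest 25% of sites by score it was 0% in Col7a1 and 27.9% in other protein-coding genes.

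By its strongest recurring region Col7a1 was near the middle of the same genes. That region, with a mean percentile of 81.2, ranked 1563 of 3594, and the median gene had 78.1. The Col7a1 value is the highest of 11 regions, whereas the median gene had 1 region, so the values compared are unlike. Over recurring regions, the median was 58.4 in Col7a1 and 73.2 in other protein-coding genes. Of the 15 genes with the most recurring regions, Skint6 alone had a lower value for its strongest recurring region, 70.4. When the sites in the lower 50% of each list by score were left out, 5 of the 11 regions remained (regions 2, 4, 8, 10 and 11), or 45.5%, and other protein-coding genes together had 3706 regions, or 62.3% of their 5947. With the highest 25%, Col7a1 had 0 regions and other protein-coding genes had 1903, or 32.0% of that number. The rank of Col7a1 by recurring regions was 3 with all sites and 18 with the highest 50%.

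**Figure D4:**
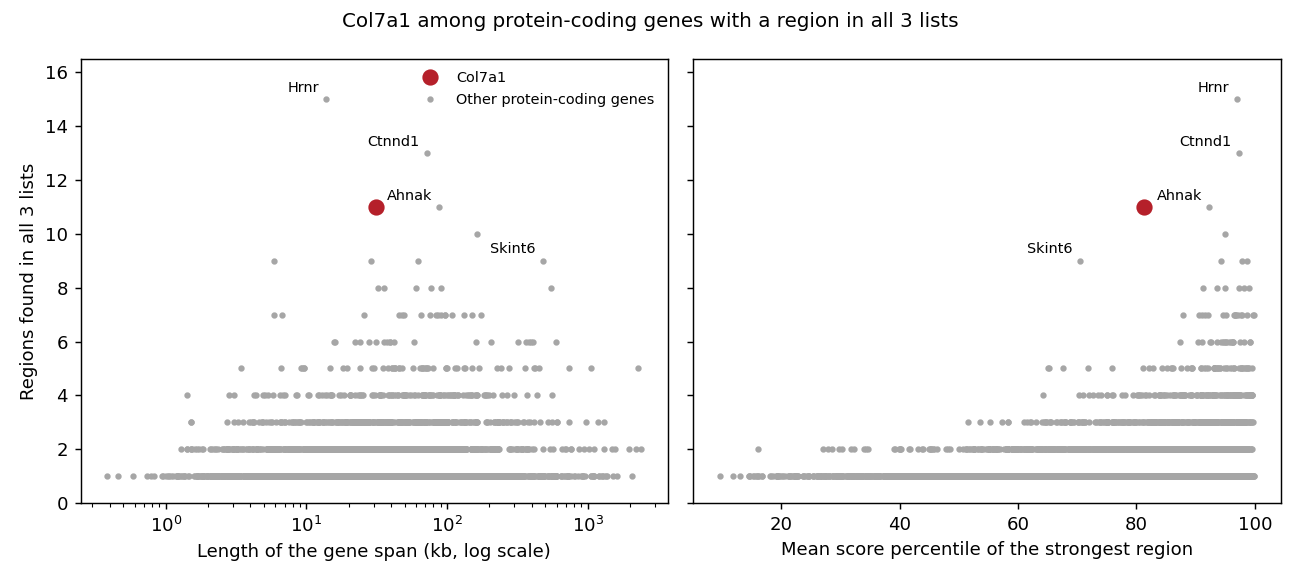
Regions found in all 3 lists (vertical axis) for each of 3594 protein-coding genes, against the length of the span in kb on a log scale (left) and against the mean score percentile of the gene's strongest recurring region (right), with Col7a1 in red. Col7a1 has 11 regions in 31.29 kb, and its strongest region, at 81.2, lies left of most genes with many regions.

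The genes whose site counts were most like those of Col7a1 were chosen by the largest absolute log2 ratio of sites over the 3 lists, among 102 other genes with at least 5 recurring regions. Ctnnd1, encoding p120-catenin of cell junctions, came first with 81, 43 and 51 sites and a largest log2 ratio of 0.14. Marchf3, a membrane ubiquitin ligase gene, had 58, 32 and 40 sites (0.43), and Ahnak had 73, 28 and 67 (0.48). Atp13a3 (0.54) and Skint6 (0.62) followed. All of these spans are longer than that of Col7a1, the shortest being Ctnnd1 with 71882 nt, and the strongest region of Ctnnd1 had a mean percentile of 97.3.

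Col7a1 had more contacts than any other collagen gene. Of 43 other collagen genes, 8 had a region found in all 3 lists (18.6%, against 16.4% of all protein-coding genes). Sites in any list were found in 20 of the 43, a larger share than the 33.7% of all protein-coding genes, and 23 had none. Col17a1, the transmembrane collagen of hemidesmosomes, had 5 recurring regions and 32, 26 and 49 sites in lists 1, 2 and 3. Col12a1, Col18a1 and Col4a5 had 2 each, and Col25a1, Col4a1, Col4a2 and Col5a2 had 1 each. For Col12a1 and Col5a2 the strand was taken from the sites, so these regions may not lie on the gene's own strand. Col4a1 and Col4a2 encode chains of the network collagen of basement membranes, with 7, 4 and 3 sites and with 5, 11 and 3 sites. Recurring regions per kb of span numbered 0.352 in Col7a1 and 0.109 in Col17a1.

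**Figure D5:**
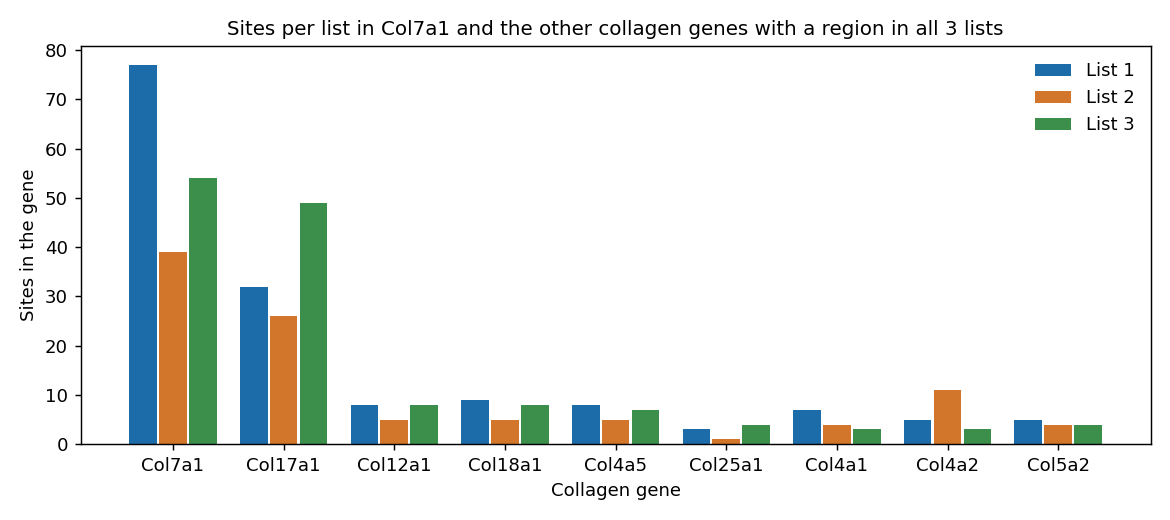
Number of sites in lists 1, 2 and 3 (vertical axis) in Col7a1 and in the 8 other collagen genes with a region found in all 3 lists. Col7a1 has 77, 39 and 54 sites, Col17a1 has 32, 26 and 49, and the others have at most 11 in a list.

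Contacts also lay in other genes of the dermal-epidermal junction. In a list of 28 basement membrane zone genes, 14 had a recurring region (50%, against 16.4% of all protein-coding genes), the median member had 0.5 regions, and no test was run. Plec, the plakin that links keratin to hemidesmosomes, had 8, Col17a1 had 5, and Lama3, the alpha chain of laminin-332, had 3. Itga6, the alpha chain of the hemidesmosomal integrin, Col18a1 and Col4a5 had 2 each. Lamb3, encoding a laminin beta chain, had 0, 2 and 0 sites and no recurring region. Itgb4, the integrin beta chain, had 0, 5 and 5 sites and no recurring region. Of the members with a recurring region, Plec, Lama3, Itga6, Fras1 and Lamc1 had their strand taken from the sites. Their regions may not lie on the gene's own strand. Lists of junction and collagen genes were chosen with earlier results of these data known.

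Genes that modify and secrete collagen had a recurring region about as often as protein-coding genes in general. Of 20 such genes, 3 had a recurring region (15%, against 16.4% of all protein-coding genes). Sites in any list were found in 9 of the 20, a larger share than the 33.7% of all protein-coding genes. P4hb, a subunit of the prolyl hydroxylase that stabilises the triple helix, had 2, and Mia3 and Mia2, which help export collagen from the endoplasmic reticulum, had 1 each. Serpinh1, the collagen chaperone, and Plod3, a lysyl hydroxylase gene, had no site, nor did P4ha1, a catalytic prolyl hydroxylase subunit.

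Markers of both cell types known to make type VII collagen were counted. Dermal fibroblast markers had a recurring region about as often as protein-coding genes in general, and keratinocyte markers more often. The difference between their lists was not tested. Of 14 dermal fibroblast markers, 2 had a recurring region (14.3%, near the 16.4% of all protein-coding genes), which were Col5a2 and Sparc with 1 each. A site in any list was found in 7 of the 14, a larger share than the 33.7% of all protein-coding genes. Col5a2 had no annotated strand and was given the strand with most of its sites, so its region may not lie on the gene's own strand. The other 7 had no site assigned, namely Col1a1, Col6a2, Col6a3, Dcn, Fbn1, Lum and Pdgfra. Sites of a fibroblast marker ranged up to 13 in a list, the value of Sparc in list 3. Of 10 keratinocyte markers, 5 had a recurring region (50%, against 16.4% of all protein-coding genes), Krt5 with 7, Dsp and Krt15 with 3, and Itga6 and Trp63 with 2. A site in any list was found in 8 of the 10. Krt15, Itga6 and Trp63 also had their strand taken from the sites, so the same limit holds for their regions. The abundant keratin genes Krt14 and Krt1 had no site assigned, so a lack of sites does not show a lack of transcript. Whether Col7a1 RNA of fibroblasts took part in the Col7a1 contacts was not tested.

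The genes beside Col7a1 had few contacts. Uqcrc1, a gene of mitochondrial complex III that ends 3945 nt upstream, had 0, 4 and 9 sites and no region found in all 3 lists. Ucn2, a hormone gene that begins 1288 nt downstream, had no site. Pfkfb4, a regulator of glycolysis that begins 3397 nt downstream, had 2, 2 and 0 sites.

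The number of recurring regions depended on which lists had to hold them. Without list 1, 11 regions were held by both others, 10 of them among the 11 described. Without list 2 there were 18, which kept all 11 and added 7. Without list 3 there were also 18, with a further 7 beside the 11. A region before 9399 nt could not arise in this way, because no list has a site there.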

How the data were processed

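The 3 lists are the authors' single-nucleotide sites, each with a score that the authors deposited without a stated scale. Calling used input and pooled 2 replicates a list, per the file headers, so the spread between single libraries cannot be seen and sites in abundant RNA can be lost to the input. Builds GRCm38 and mm10 and the tools HISAT2 2.1.0, cutadapt 1.16 and HOMER appear in the submitters' processing notes, with no role stated. Settings and duplicate removal are not given in the sources.

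Sites were joined into regions at 10 nt in Python 3.11.15, checked on simulated lists. A region was given to a protein-coding gene if no other such span (RefSeq, GRCm38.p6) covered its middle, on the gene's annotated strand, given for 17492 of 21887 genes, or else on the strand with most of its sites. Of sites in spans with an annotated strand, 89.5% lay on it. Intervals are exact binomial (Clopper-Pearson, 95%, SciPy 1.17.1). No test was run, because Col7a1 was chosen for its sites. Col7a1 and all gene lists were chosen with earlier results of these data known. Named were the regions of all 3 lists, the 5 other regions with the highest score percentile, the 4 members of each list with most regions (others were named after their values were seen), the nearest genes, and the 5 genes most alike in sites. Exon positions and the UGG motif were planned but not analysed here. A named member of 1 gene list is not reported here.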

Additional observations from a re-analysis of the deposited data

How the results depend on the processing

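The recurring Col7a1 regions had a median position at 70.3% of the span. This median moved by less than 2.02% of the span, the limit set for it. That held with joining at 5, 20 or 50 nt, with the 50% of sites of highest score and without each list in turn. The farthest value was 72.2%, with the 50% of sites of highest score. The median position was not computed under the other sharing distances. Joining at 5, 20 or 50 nt moved no count, rank or share beyond the limits set for it. The scores mattered most. With the 50% of sites of highest score, Col7a1 had 5 recurring regions (0.160 per kb, rank 18) and 24, 14 and 18 sites in lists 1, 2 and 3, and recurring regions were found in 9 basement membrane zone genes and 3 other collagen genes. With the highest 25% it had 0 regions (0 per kb, a share of 0%, against 27.9% in other protein-coding genes, rank 1470 behind all genes with a region) and 7, 4 and 5 sites, with 4 basement membrane zone and 2 other collagen genes. Leaving out 1 list at a time gave 11 to 18 regions, 0.352 to 0.575 per kb, a share of 21.6% to 38.3% and ranks 1 to 5. In other protein-coding genes the share was 27.2%, 38.2% and 30.6% without list 1, 2 and 3. Their number of regions was 115%, 158% and 135% of that with all lists. There were 15 to 17 basement membrane zone genes and 8 to 14 other collagen genes. The share of all protein-coding genes with a region at these changed settings is not given. The higher counts there follow from asking for 2 lists in place of 3. Sharing within 50 nt raised the share of union regions in all 3 lists to 34.1%, against 22.9% in other protein-coding genes, and a tolerance of 1 or 3 nt raised the share of sites with both other lists to 25.9% and 34.7%. Taking the strand of every gene from its sites, an alternative chosen after seeing the data, left the rank at 3 and gave 10 other collagen genes. No paired analysis was possible because each list pools 2 replicates and inputs have no values of their own. Exon and motif results were not run.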

Other observations

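In each list, Col7a1 sites in each range of 25% of scores can be set beside other sites, on small counts. Of the 12 Col7a1 sites in the lowest 25% of list 2, 4 (33.3%) were on a nucleotide held by all lists, against 12.1% of other sites of that range. In the highest 25% of list 2 it was 0 of 4 Col7a1 sites, against 79.2% of other sites. The ranges between them had 0 of 13 Col7a1 sites, against 19.9% of other sites, and 3 of 10, against 34.6%, so there was no steady order with score. In list 1 the lowest 25% had 3 of 22 Col7a1 sites (13.6%), against 3.10% of other sites, and the highest 25% had 3 of 7 (42.9%), against 52.0%. The ranges between them in list 1 had 1 of 31, against 6.54%, and 0 of 17, against 17.6%. In list 3 the lowest 25% had 2 of 22 (9.09%), against 7.43%, and the highest 25% had 2 of 5 (40%), against 60.8%. The ranges between them in list 3 had 2 of 14, against 12.5%, and 1 of 13, against 27.6%. Sites of a gene are not replicates, and no test was run.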
